A study of Arabidopsis thaliana with 12 samples.

Results

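The difference between 2 responses is described here: the response of Arabidopsis thaliana seedlings to a spray with the hormone abscisic acid (ABA) in the line RNAi-MARS, minus the same response in the wild type Col-0. All 12 libraries of the series enter it, 3 in each of 4 groups: RNAi-MARS 4 h after the spray, RNAi-MARS at 0 h without ABA, Col-0 4 h after the spray and Col-0 at 0 h without ABA. RNAi-MARS carries an RNA interference transgene aimed at MARS (AT5G00580), a long non-coding RNA, and Col-0 does not. The design text names the line RNAI-MARS-1, so 1 transformed line stands for the genotype, and the promoter of the construct is not given in the sources used here. Seedlings of all groups were 12 days old and were grown on half-strength MS medium with sucrose in long days. The spray held 10 µM ABA in water, and polyadenylated RNA of whole seedlings was sequenced. No group was sprayed with water, so the hormone, the spraying and the 4 h that passed cannot be told apart within a genotype. On the log scale, what both genotypes share in these respects cancels in the difference between their responses. The 3 libraries of a group are called triplicates, and nothing says that they came from separately grown plants, so p-values measure the spread between these libraries, which may be technical in part.

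ABA accumulates in plants under drought and binds receptors of the PYR/PYL family. A receptor with its hormone binds and blocks clade A protein phosphatases 2C (PP2Cs), which otherwise hold SnRK2 kinases inactive. The freed kinases phosphorylate bZIP transcription factors of the ABF and ABI5 group, which bind the ABRE element and switch on genes for dehydrins, late embryogenesis abundant (LEA) proteins and other protectants, and also genes for the PP2Cs themselves. MARS lies within the marneral gene cluster on chromosome 5, whose enzymes make the triterpene marneral.

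No feature differed between the responses of RNAi-MARS and Col-0 at an adjusted p under 0.05 in edgeR (0 of 22465 tested, 0%), and the smallest adjusted p was 0.946. At an unadjusted p under 0.05, 603 features had a positive difference (2.68%) and 473 a negative one (2.11%). That makes 1076 features, against 1123 that an even spread of p-values over 22465 features puts below 0.05. limma-voom called 0 features as well, with 1040 at an unadjusted p under 0.05. DESeq2, run on every feature with a count rather than on these 22465, called 4 features, with 1075 at an unadjusted p under 0.05. That count therefore does not compare with the 1123. The 4 were ABCG27, RVE1, AT3G26510 and AT5G17340. A difference in response is given throughout on the log2 scale, as the log2 fold change of 4 h over 0 h in RNAi-MARS minus that in Col-0, so a positive value means a greater rise or a smaller fall in RNAi-MARS. Its standard error (SE) had a median of 0.215 over the features tested, and the median half-width of its 95% interval was 0.47. That interval lay within a 2-fold difference in either direction for 15518 features (69.1%), and at the median feature a difference smaller than 0.47 could not be told from 0 even before adjustment.

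**Figure D1:**
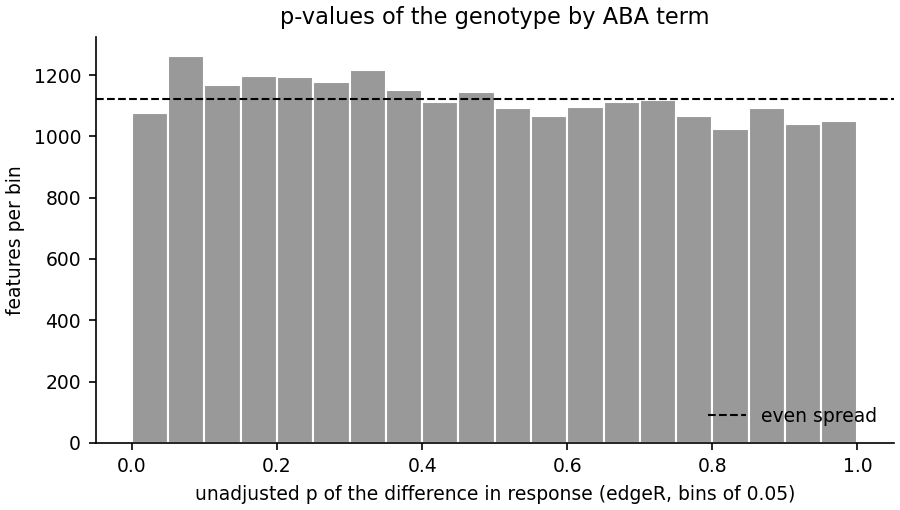
Number of features (vertical axis) in each of 20 bins of the unadjusted edgeR p-value of the difference in response (horizontal axis). The dashed line marks 1123 features per bin, an even spread, and the lowest bin holds 1076.

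The spray response itself was large in both genotypes. In RNAi-MARS 9567 features were called at an adjusted p under 0.05 in edgeR (42.6%), of which 4849 rose (21.6%) and 4718 fell (21%). In Col-0 8979 were called (40%), of which 4646 rose (20.7%) and 4333 fell (19.3%). A total of 7211 features were called in both genotypes, which is 75.4% of the calls in RNAi-MARS and 80.3% of those in Col-0, and 7209 of them moved the same way. The 2 exceptions were AT2G17630 and CYP82C2. Over all tested features, which are not independent of each other, the 2 responses, which share no library, correlated at a Pearson r of 0.867 and a Spearman rho of 0.84. Among the 3755 features that rose in both genotypes, the median log2 response was 0.85 in RNAi-MARS and 0.82 in Col-0. For the 3454 features that fell in both, the medians were -0.70 in RNAi-MARS and -0.66 in Col-0. The response was larger in RNAi-MARS for 56.7% of the 7209 features, but this share dropped below one in 2 when library A or B of Col-0 at 0 h was left out (49.0% and 48.9%) and reached 64.5% without library A of RNAi-MARS at 0 h. For 5908 of the 7211 features called in both (81.9%), the 95% interval of the difference stayed within 2-fold.

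**Figure D2:**
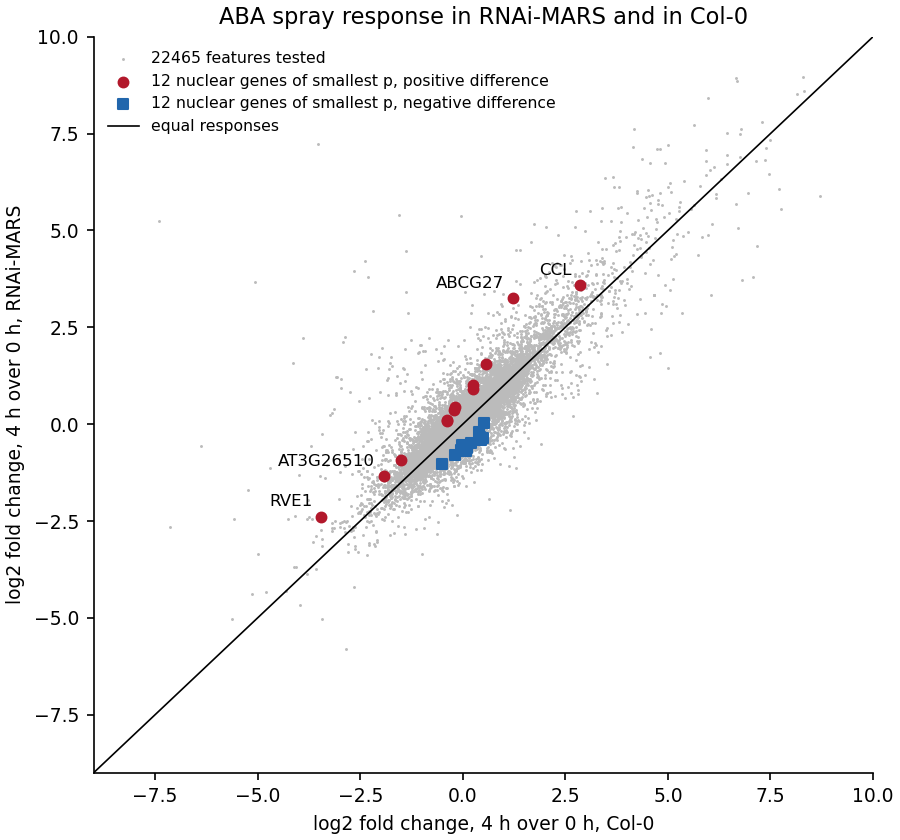
Log2 fold change of 4 h over 0 h in RNAi-MARS (vertical axis) against the same in Col-0 (horizontal axis) for 22465 features. Red circles are the 12 nuclear genes of smallest unadjusted p with a positive difference and blue squares the 12 with a negative one. Most features lie along the line of equal responses (Pearson r 0.867 over features).

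Total counts were between 19020202 and 38787804 per library. The share of plastid genes was highest in library C of RNAi-MARS at 0 h (0.104%) and no higher than 0.0256% elsewhere. Library B of RNAi-MARS at 4 h had the lowest sum over 22 photosynthesis genes (65570 CPM, counts scaled to the effective library size), against 90477 to 141447 CPM in the other libraries. Library C of Col-0 at 4 h had the highest mean level of 19 heat shock genes (1.48 on a centred log2 scale, against at most 0.83 elsewhere). The 17 root tissue markers, a sign of how much root a sample holds, summed to 1984 to 2790 CPM in RNAi-MARS at 4 h and 2260 to 2478 CPM in RNAi-MARS at 0 h. In Col-0 they summed to 2148 to 2809 CPM at 4 h and 2025 to 2866 CPM at 0 h, so the groups overlapped. Their mean centred log2 level was lowest in library A of RNAi-MARS at 4 h (-0.72) and library C of Col-0 at 0 h (-0.65), against -0.34 or more elsewhere. Of 10 flower and seed markers, 1 passed the filter on low counts. In such whole-seedling RNA, fewer cells of a type and less RNA per cell cannot be told apart.

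MARS, the target of the construct, stood at 2.303, 1.34 and 4.11 CPM in RNAi-MARS at 4 h and 0.196, 0.156 and 0.167 CPM in RNAi-MARS at 0 h, for libraries A, B and C in this order, as for all triplets of values below. Col-0 had 21.3, 9.09 and 20.1 CPM at 4 h and 6.63, 2.598 and 0.344 CPM at 0 h. Every RNAi-MARS library was lower than every Col-0 library of the same time. Reads of the construct itself would be counted to MARS too. The RNAi-MARS libraries at 0 h held few reads of MARS, so the fitted size of a rise from them is uncertain. MARS rose after the spray in both genotypes, by 3.82 ± 1.05 (SE) in RNAi-MARS (edgeR adjusted p = 0.0147) and by 2.44 ± 0.76 in Col-0 (adjusted p = 0.0265). The difference between these responses was 1.38 ± 1.33 (unadjusted p = 0.323, edgeR adjusted p = 0.947), with a 95% interval of -1.57 to 4.33, so neither a greater nor a smaller relative rise can be read from it. It was 0.30 without library A of Col-0 at 0 h, 0.07 by limma-voom and 1.99 without both libraries of lowest root marker level. The 3 coding genes of the marneral cluster differed by 0.88 ± 0.99 (CYP71A16), 0.75 ± 1.21 (CYP705A12) and 0.14 ± 1.43 (MRN1, marneral synthase), and none of the 3 had an unadjusted p under 0.05. Without library A of Col-0 at 0 h the values were 0.37 for CYP71A16, 0.06 for CYP705A12 and -0.87 for MRN1, and without library A of RNAi-MARS at 0 h they were 1.88, 1.76 and 1.37 in the same order. The median of the 4 cluster members, MARS included, was 0.81. It was 0.18 without library A of Col-0 at 0 h and 1.42 without both libraries of lowest root marker level. MRN1 stood at 40.4, 61.8 and 30.5 CPM in RNAi-MARS at 4 h, 34.6, 7 and 6.71 CPM in RNAi-MARS at 0 h, 31.03, 2.44 and 22.4 CPM in Col-0 at 4 h and 15.8, 6.83 and 0.719 CPM in Col-0 at 0 h. The genotypes overlapped at both times, and the difference of MRN1 was -0.05 by limma-voom.

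The smallest p of all nuclear genes belonged to ABCG27 (AT3G52310, chr3:19399188-19402981 on the plus strand of TAIR10.1), an ATP-binding cassette transporter of the G subfamily. In RNAi-MARS it stood at 24.8, 23.6 and 14.6 CPM at 4 h, against 2.51, 1.81 and 2.28 CPM at 0 h. In Col-0 the levels were 15.6, 16.8 and 11.2 CPM at 4 h, against 8.03, 5.92 and 4.85 CPM at 0 h. The RNAi-MARS libraries were the lowest of all at 0 h, without overlap with Col-0, while at 4 h the genotypes overlapped. ABCG27 rose by 3.24 ± 0.27 in RNAi-MARS (edgeR adjusted p = 5.54e-06) and by 1.22 ± 0.24 in Col-0 (adjusted p = 0.00226). The difference in response was 2.02 ± 0.35 with a 95% interval of 1.25 to 2.8. It was not called by edgeR (adjusted p = 0.946, unadjusted p = 0.000119) and was called by DESeq2 (2.03, adjusted p = 0.00224). Leaving out any 1 library gave 1.81 to 2.22.

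RVE1 (AT5G17300, chr5:5690225-5692992, minus strand), a MYB-like factor of the clock family that peaks in the morning and links the clock to auxin, stood at 17.9, 19.5 and 18.7 CPM in RNAi-MARS at 4 h, against 104, 91.9 and 99.1 CPM at 0 h. The Col-0 levels were 14.3, 11.1 and 12.3 CPM at 4 h, against 171, 109.6 and 136 CPM at 0 h. RNAi-MARS was above Col-0 in every library at 4 h and below it in every library at 0 h. The gene fell in both genotypes, with a log2 response of -2.39 ± 0.15 in RNAi-MARS and -3.46 ± 0.16 in Col-0, and the difference was 1.07 ± 0.21 (unadjusted p = 0.000257, DESeq2 adjusted p = 0.0264, edgeR adjusted p = 0.946). AT3G26510 (chr3:9710326-9712900, minus strand), which encodes a protein with an octicosapeptide/Phox/Bem1p domain, had 98.7, 92.7 and 98.5 CPM in RNAi-MARS at 4 h, against 241, 247 and 247 CPM at 0 h, and 81.4, 72.99 and 75.6 CPM in Col-0 at 4 h, against 327, 282 and 268 CPM at 0 h. It too was higher at 4 h and lower at 0 h in all 3 RNAi-MARS libraries than in any Col-0 library. It fell in both, with a log2 response of -1.34 ± 0.093 in RNAi-MARS and -1.93 ± 0.095 in Col-0, a difference of 0.59 ± 0.13 (DESeq2 adjusted p = 0.0264, edgeR adjusted p = 0.946). RVE1 and AT3G26510 each overlap a short gene on the opposite strand (AT5G17305 and AT3G26512), and the strand setting of the counting was not given, so their counts may hold reads of those genes.

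The 250 bases before the annotated start of these 3 genes are shown because they head the comparison and hold motifs of ABA and clock regulation. Sequences are from the RefSeq assembly TAIR10.1, 5′ to 3′ on the strand of the gene, for chr3:19398938-19399187 (plus), chr5:5692993-5693242 (minus) and chr3:9712901-9713150 (minus). Capitals mark the ABRE core ACGTG on either strand and the G-box CACGTG, which holds an ABRE core on each strand, in ABCG27 and RVE1, and the CCA1-binding letters AAAAATCT, here on the opposite strand, in AT3G26510.
ABCG27: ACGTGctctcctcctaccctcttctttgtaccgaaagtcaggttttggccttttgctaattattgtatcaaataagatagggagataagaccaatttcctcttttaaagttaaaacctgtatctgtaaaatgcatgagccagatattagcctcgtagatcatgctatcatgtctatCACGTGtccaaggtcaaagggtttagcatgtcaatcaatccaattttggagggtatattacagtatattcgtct
RVE1: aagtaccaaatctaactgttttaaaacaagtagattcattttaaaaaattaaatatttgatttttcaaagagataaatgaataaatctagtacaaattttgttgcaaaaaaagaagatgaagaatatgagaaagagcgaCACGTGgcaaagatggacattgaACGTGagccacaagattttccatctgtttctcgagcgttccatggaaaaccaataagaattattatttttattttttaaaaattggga
AT3G26510: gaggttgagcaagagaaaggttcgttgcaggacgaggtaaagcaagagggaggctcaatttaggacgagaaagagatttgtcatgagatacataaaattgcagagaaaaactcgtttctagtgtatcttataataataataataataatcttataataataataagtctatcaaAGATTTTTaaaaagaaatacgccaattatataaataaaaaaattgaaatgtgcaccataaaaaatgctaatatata
In ABCG27 a G-box began 74 bases before the start and another ABRE core 250 bases before it. In RVE1 a G-box began 111 bases and another ABRE core 88 bases before the start. Of all 21771 promoters of this length, 23.9% held an ABRE core and 7.3% a G-box. Among the 12 nuclear genes of smallest p with a positive difference, these 2 genes were the ones with either motif (16.7%), and 1 of the 12 held the evening element AAAATATCT (CCL, 8.33%, against 2.42% of all promoters). AT3G26510 was the one with the CCA1-binding letters (8.33%, against 6.61%). Among the 12 with a negative difference, 2 held an ABRE core (16.7%), 1 of them as a G-box, and none held either clock motif.

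The other 9 of the 12 nuclear genes of smallest p with a positive difference had values from 0.47 (AT3G03990) to 0.98 (AT1G30260) and unadjusted p-values from 0.00103 to 0.00211, and none was called by any of the 3 tools. CCL, whose short-lived transcript is under clock control, stood at 740.4, 765 and 1015 CPM in RNAi-MARS at 4 h, against 74.6, 69.7 and 64.4 CPM at 0 h. Col-0 had 588, 625 and 566 CPM at 4 h, against 88.1, 83.6 and 75.6 CPM at 0 h. It rose by 3.59 ± 0.14 in RNAi-MARS and by 2.85 ± 0.14 in Col-0, a difference of 0.75 ± 0.18. AT1G30260, annotated as a galactosyltransferase family protein, had 12.3, 12.9 and 10.7 CPM in RNAi-MARS at 4 h, against 4.504, 3.68 and 4.15 CPM at 0 h. In Col-0 it had 10.9, 9.71 and 9.03 CPM at 4 h, against 7.98, 7.17 and 5.03 CPM at 0 h, and the difference was 0.98 ± 0.23. AT1G08230, a transmembrane amino acid transporter, rose by 1.0 ± 0.13 in RNAi-MARS (edgeR adjusted p = 0.0001399), against 0.25 ± 0.13 in Col-0 (adjusted p = 0.158), a difference of 0.75 ± 0.19. DEAR2, a DREB-type factor with a repressor motif, fell in both genotypes (-0.91 ± 0.1 in RNAi-MARS and -1.51 ± 0.1 in Col-0), a difference of 0.59 ± 0.14. The remaining genes were AT5G04080 (0.67 ± 0.17), a cysteine-rich stress tolerance protein, AT2G46690 (0.62 ± 0.15), a SAUR-like gene, AT2G04690 (0.48 ± 0.11) and AT3G03990, an alpha/beta hydrolase. AT1G25175 (0.56 ± 0.14) lies in a repeated segment of chromosome 1, and its counts were not whole in any of the 12 libraries, so reads were divided with another copy and its value is uncertain. In 11 of the 12 genes the fitted level was higher in RNAi-MARS than in Col-0 at 4 h and lower at 0 h. The exception, AT1G25175, was lower in RNAi-MARS at both times (-1.45 at 4 h and -2.01 at 0 h). Such opposite signs follow in part from the choice of genes. The difference in response is the genotype difference at 4 h minus that at 0 h. Of the genes with the largest differences among those with an unadjusted p under 0.01, AT5G53420, a CCT motif protein (0.82 ± 0.25), and AT1G29418 (0.94 ± 0.29, counts divided with other features in all 12 libraries) were not among these 12.

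**Figure D3:**
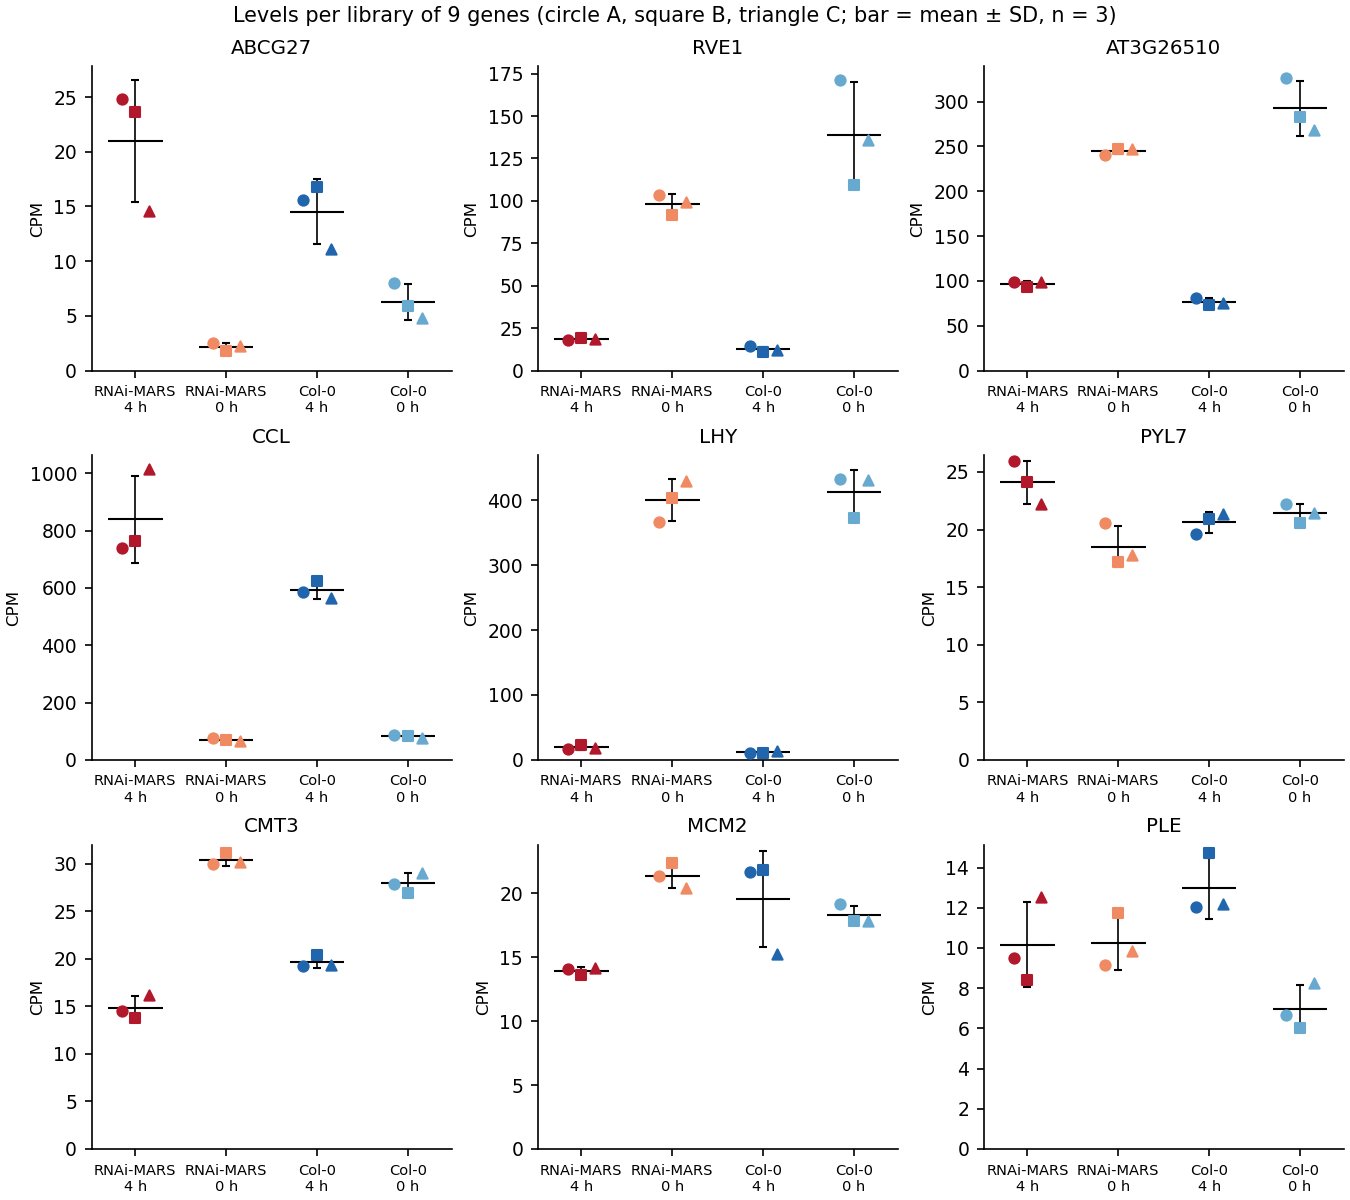
CPM (vertical axes, from 0) in each library of the 4 groups for 9 genes, with libraries A, B and C as circle, square and triangle and the mean ± SD of 3 libraries. ABCG27, RVE1, AT3G26510, CCL, LHY and PYL7 have positive differences in response (0.43 to 2.02) and CMT3, MCM2 and PLE negative ones (-0.90 to -0.53).

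The 12 nuclear genes of smallest p with a negative difference lay between -0.85 (DRP5A) and -0.47 (AT1G62020), with unadjusted p-values from 0.000224 to 0.00223 and no call by edgeR, limma-voom or DESeq2. TBL35 (AT5G01620), of a family that acetylates cell wall polymers, had the smallest p. It stood at 9.14, 8.87 and 9.18 CPM in RNAi-MARS at 4 h, against 16.2, 15.7 and 15.01 CPM at 0 h, and at 11.9, 12 and 12.4 CPM in Col-0 at 4 h, against 12.96, 13.5 and 14.9 CPM at 0 h. It fell in RNAi-MARS (-0.79 ± 0.081, edgeR adjusted p = 2.15e-05), against a value of -0.19 ± 0.08 in Col-0 (adjusted p = 0.08496), a difference of -0.6 ± 0.11. CMT3 (AT1G69770), the chromomethylase that maintains non-CG DNA methylation, had 14.5, 13.8 and 16.2 CPM in RNAi-MARS at 4 h, against 29.9, 31.1 and 30.2 CPM at 0 h. Col-0 had 19.2, 20.4 and 19.4 CPM at 4 h, against 27.8, 26.9 and 29.1 CPM at 0 h. CMT3 fell in both genotypes (-1.04 ± 0.076 in RNAi-MARS and -0.51 ± 0.075 in Col-0), and the difference was -0.53 ± 0.11 (unadjusted p = 0.000347, edgeR adjusted p = 0.946). For both genes the 3 RNAi-MARS libraries were lower than all 3 Col-0 libraries at 4 h and higher than all 3 at 0 h.

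Several of the other genes act in the copying or division of chromosomes and cells, a trait noted after their identity was seen. MCM2 (-0.71 ± 0.17) and MCM5 (-0.6 ± 0.15) are subunits of the replicative DNA helicase. SMC3 in the annotation (-0.54 ± 0.13) is a structural maintenance of chromosomes protein and BARD1 (-0.77 ± 0.19) a RING protein of DNA repair. DRP5A (-0.85 ± 0.21) is a dynamin-related protein, AT5G18700 (-0.6 ± 0.15), known as RUNKEL, a kinase-like protein of cell plate formation, and AT2G22610 (-0.75 ± 0.19) has a kinesin motor domain. The other 2 were AT3G42660 (-0.7 ± 0.17), a WD-40 repeat protein, and AT1G62020, the alpha subunit of the coatomer. All 12 had a fitted level lower in RNAi-MARS than in Col-0 at 4 h and higher at 0 h, which again follows in part from their choice. TBL35, AT5G18700 and AT2G22610, like AT5G04080 above, overlap annotated neighbours, so some of their counts may belong to those. AT2G17630, a phosphoserine aminotransferase, was called with opposite signs: it fell in RNAi-MARS (-0.41 ± 0.14, edgeR adjusted p = 0.0361) and rose by 0.43 ± 0.14 in Col-0 (adjusted p = 0.0309). Its levels were 7.74, 8.38 and 7.97 CPM in RNAi-MARS at 4 h, against 11.3, 12.1 and 8.77 CPM at 0 h, and 12.1, 9.66 and 12.6 CPM in Col-0 at 4 h, against 9.52, 8.25 and 7.76 CPM at 0 h, so times overlapped in neither genotype, and the difference of -0.85 ± 0.2 was not called (edgeR adjusted p = 0.946). Among the larger negative values with an unadjusted p under 0.01 were AT5G55450 (-1.29 ± 0.37), a lipid transfer protein, the amino acid transporter gene UMAMIT17 (-1.01 ± 0.29) and PLE (-0.9 ± 0.24), a microtubule bundling protein of the cytokinetic phragmoplast. PLE rose by 0.89 ± 0.17 in Col-0 (edgeR adjusted p = 0.001799), against -0.015 ± 0.17 in RNAi-MARS (adjusted p = 0.952).

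The 6 MCM helicase subunits, MCM2 to MCM7 (MCM7 is PRL), were listed together after MCM2 and MCM5 had been seen among the smallest p-values. All 6 had a negative difference, from -0.71 (MCM2) to -0.46 (MCM4), with a median of -0.55 against -0.01 over all features, and all 6 had an unadjusted p under 0.05 (background 2.11%), which is a description since the list was chosen for its values. All 6 fell in RNAi-MARS at an edgeR adjusted p under 0.05, by 0.61 to 0.73 (against 21% of all features that fell), and none of the 6 was called in Col-0, where 19.3% of all features fell and the 6 values were -0.21 to 0.10. MCM2 stood at 14.1, 13.6 and 14.2 CPM in RNAi-MARS at 4 h, against 21.3, 22.3 and 20.4 CPM at 0 h. The levels in Col-0 were 21.6, 21.8 and 15.2 CPM at 4 h, against 19.1, 17.8 and 17.9 CPM at 0 h. Their summed level was 83.6, 68.2 and 84.3 CPM in RNAi-MARS at 4 h, against 119, 133 and 121 CPM at 0 h. For Col-0 the sums were 101, 117 and 87.1 CPM at 4 h, against 106, 109.7 and 109 CPM at 0 h. RNAi-MARS was thus below Col-0 in every library at 4 h and above it in every library at 0 h. Leaving out any 1 library gave medians from -0.63 (without library C of Col-0 at 4 h) to -0.43 (without library B of RNAi-MARS at 4 h).

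Mitotic genes gave the same sign with smaller values. Of 15 cyclins, cyclin-dependent kinases and partners, 0 were called and all 15 had a negative difference, with a median of -0.36, and 4 had an unadjusted p under 0.05 (26.7%, against 2.11% of all features). CYCB1;2, a cyclin of entry into mitosis, stood at 12.2, 10.8 and 12.1 CPM in RNAi-MARS at 4 h, against 14.7, 12.03 and 11.7 CPM at 0 h. In Col-0 the levels were 12.4, 14.9 and 14.2 CPM at 4 h, against 8.52, 8.94 and 11.2 CPM at 0 h. It rose by 0.53 ± 0.13 in Col-0 (edgeR adjusted p = 0.00836), against -0.13 ± 0.13 in RNAi-MARS (adjusted p = 0.449), and the difference was -0.66 ± 0.19. NACK1, a kinesin of cytokinesis, had the lowest value of the list (-0.7 ± 0.2), and the mitotic kinases CDKB1;2 and CDKB2;1 had -0.68 ± 0.28 and -0.49 ± 0.2. In RNAi-MARS 0 of the 15 rose and 1 fell (against 21.6% and 21% of all features), and in Col-0 5 rose and 1 fell (against 20.7% and 19.3%). The mean centred log2 level of the list was 0.1, -0.24 and 0.064 in RNAi-MARS at 4 h, against 0.25, 0.03 and 0.043 at 0 h, and -0.059, 0.25 and 0.045 in Col-0 at 4 h, against -0.26, -0.084 and -0.13 at 0 h. The lowest Col-0 values were at 0 h, and library B of RNAi-MARS at 4 h was the lowest of its group. Without that library the median was -0.22, and without library A of the same group -0.47.

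Promoters of MCM2, MCM5 and CYCB1;2 are shown for the motifs of DNA replication and mitosis genes. The windows are chr1:16969964-16970213 (plus), chr2:3527501-3527750 (minus) and chr5:1861704-1861953 (minus) of TAIR10.1, 5′ to 3′ on the strand of the gene. Capitals mark the E2F letters TTTCCCGC in MCM2 and MCM5 and the mitosis-specific activator core AACGG, on either strand, in CYCB1;2. These motifs were chosen after the values were seen.
MCM2: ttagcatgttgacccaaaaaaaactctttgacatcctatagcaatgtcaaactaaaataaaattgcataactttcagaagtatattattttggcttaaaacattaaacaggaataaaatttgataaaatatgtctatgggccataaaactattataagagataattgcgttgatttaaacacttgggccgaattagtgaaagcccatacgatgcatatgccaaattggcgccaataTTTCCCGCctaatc
MCM5: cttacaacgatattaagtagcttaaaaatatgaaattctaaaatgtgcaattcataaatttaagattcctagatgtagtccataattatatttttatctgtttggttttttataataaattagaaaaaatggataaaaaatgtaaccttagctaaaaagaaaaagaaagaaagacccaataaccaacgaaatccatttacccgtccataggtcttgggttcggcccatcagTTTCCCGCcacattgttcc
CYCB1;2: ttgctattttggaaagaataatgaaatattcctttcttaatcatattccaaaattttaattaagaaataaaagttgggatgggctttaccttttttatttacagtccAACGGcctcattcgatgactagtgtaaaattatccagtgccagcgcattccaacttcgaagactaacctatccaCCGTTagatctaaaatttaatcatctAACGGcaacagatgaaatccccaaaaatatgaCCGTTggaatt
The E2F letters began 14 bases before the start in MCM2 and 19 bases before it in MCM5, and CYCB1;2 held 4 cores, the nearest 11 bases before the start. The E2F letters were in 3 of the 6 MCM promoters (50%) and in 0.597% of all 21771 promoters of this length. Of the 12 nuclear genes of smallest p with a negative difference, 3 held them (25%). MCM2 and MCM5 are in both counts, so these shares are not independent. The AACGG core was in 12 of 15 mitotic promoters (80%), against 21.5% of all promoters.

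Photosynthesis, nitrate assimilation (median -0.48) and stomatal lineage genes also had negative medians with 0 calls. Among other lists linked to growth, medians were -0.11 for auxin response genes, 0.093 for expansins and 0.051 for type-A cytokinin response regulators. Each of these medians turned sign when 1 or more of the libraries was left out. All 22 photosynthesis genes had a negative difference, from -0.39 (RCA, rubisco activase) to -0.03 (PSAD1), with a median of -0.20 and no unadjusted p under 0.05. RCA fell in both genotypes (-1.78 ± 0.18 in RNAi-MARS and -1.39 ± 0.18 in Col-0). Without library B of RNAi-MARS at 4 h, the one with the lowest photosynthesis sum, the median of the list was -0.05, and without library A of that group -0.33. The 4 tested of 5 nitrate assimilation genes were at -0.82 (nitrate reductase NIA1) to -0.42 (NIA2), and the nitrate transporter NRT1.1 alone of the 4 had an unadjusted p under 0.05 (-0.53 ± 0.21). NRT1.1 rose by 0.82 ± 0.15 in Col-0 (edgeR adjusted p = 0.00108), against 0.29 ± 0.15 in RNAi-MARS (adjusted p = 0.129). Its levels were 108, 143 and 139.8 CPM in RNAi-MARS at 4 h, against 117, 97.1 and 105 CPM at 0 h, and 197, 154 and 138 CPM in Col-0 at 4 h, against 98.9, 90.6 and 87.3 CPM at 0 h. Of 8 stomatal lineage genes, which mark young epidermis, 7 had a negative difference (median -0.33) and none had an unadjusted p under 0.05. The stomatal median was -0.15 without library C of RNAi-MARS at 4 h and -0.61 without both libraries of lowest root marker level (A of RNAi-MARS at 4 h and C of Col-0 at 0 h).

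ABA pathway genes were next described from the hormone outwards. Among 11 tested of 14 genes of ABA synthesis and breakdown, 7 had a positive and 4 a negative difference, with a median of 0.09 and 0 calls. CYP707A3, one of the hydroxylases that break ABA down, had the smallest p (-0.78 ± 0.3, unadjusted p = 0.0253, edgeR adjusted p = 0.946). It stood at 8.87, 14.1 and 12.6 CPM in RNAi-MARS at 4 h, against 5.99, 8.56 and 8.19 CPM at 0 h, and at 10.6, 13.7 and 16.2 CPM in Col-0 at 4 h, against 4.34, 5.89 and 4.78 CPM at 0 h. CYP707A3 rose in both genotypes, by 0.65 ± 0.21 in RNAi-MARS and by 1.43 ± 0.22 in Col-0. The related CYP707A2 (0.73 ± 0.38) and CYP707A4 (0.6 ± 0.32) had positive values, and NCED9, an enzyme of ABA synthesis picked out for its lowest value of the tested genes, had -1.22 ± 0.67. The median of the list was -0.04 without library B of RNAi-MARS at 0 h. Of 14 receptors 9 were tested, with a median of 0.09 and 6 positive values. PYL7 had the smallest p of the 9 (0.43 ± 0.12, unadjusted p = 0.00491, edgeR adjusted p = 0.946). It stood at 25.96, 24.1 and 22.2 CPM in RNAi-MARS at 4 h, against 20.6, 17.2 and 17.8 CPM at 0 h, and at 19.6, 20.9 and 21.4 CPM in Col-0 at 4 h, against 22.2, 20.6 and 21.4 CPM at 0 h. PYL7 rose in RNAi-MARS by 0.38 ± 0.088 (edgeR adjusted p = 0.00477), against -0.052 ± 0.088 in Col-0 (adjusted p = 0.6696). It overlaps 2 genes annotated on the opposite strand. PYR1 fell in both genotypes with a difference of 0.21 ± 0.1, and PYL6 had the lowest value of the 9 (-0.77 ± 0.94). The median of the receptors was -0.10 without library A of RNAi-MARS at 0 h.

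All 9 clade A PP2Cs, the phosphatases that the receptors block, had a positive difference, with a median of 0.33, and 0 of the 9 had an unadjusted p under 0.05. HAI2 had the largest value (1.62 ± 0.92, 95% interval -0.43 to 3.68) and stood at 22.8, 31.7 and 20 CPM in RNAi-MARS at 4 h, against 1.57, 0.207 and 0.223 CPM at 0 h. In Col-0 HAI2 stood at 32.9, 21.6 and 21.3 CPM at 4 h, against 3.74, 2.04 and 0.688 CPM at 0 h. The groups overlapped at 4 h, and library A of RNAi-MARS and library C of Col-0 overlapped at 0 h. HAI1 had a difference of 1.34 ± 0.75, HAB1 of 0.36 ± 0.26 and HAB2 of 0.33 ± 0.22. In each genotype 7 of the 9 rose at an edgeR adjusted p under 0.05, against 21.6% of all features in RNAi-MARS and 20.7% in Col-0, and none fell. The median was 0.15 without library A of Col-0 at 0 h and 0.51 without library A of Col-0 at 4 h. Of 8 tested kinases and transcription factors 7 had a positive difference, with a median of 0.30, and 2 had an unadjusted p under 0.05 (25%, against 2.68% of all features). These were the kinases SNRK2.6 (0.32 ± 0.14) and SNRK2.3 (0.31 ± 0.14). SNRK2.6, the kinase that closes stomata, stood at 37.5, 36.97 and 33.3 CPM in RNAi-MARS at 4 h, against 24.6, 20.9 and 23.03 CPM at 0 h. Its levels in Col-0 were 35.1, 34.5 and 32.4 CPM at 4 h, against 30.3, 27.3 and 23.8 CPM at 0 h. ABF4 had 0.32 ± 0.17, and the bZIP factor ABI5 had the one negative value (-0.35 ± 0.48). Without library A of Col-0 at 0 h the median of this list was 0.13.

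Among the ABA response markers, the dehydrins, LEA proteins and other targets at the end of the pathway, 33 of 36 had a positive difference, with a median of 0.68 against -0.01 over all features. None of the 36 was called, and 5 had an unadjusted p under 0.05 (13.9%, against 2.68%). In RNAi-MARS 35 of the 36 rose after the spray (against 21.6% of all features) and in Col-0 31 rose (against 20.7%), and none fell in either. The markers summed to 11116, 12013 and 14495 CPM in RNAi-MARS at 4 h, against 1490.3, 1195 and 1144 CPM at 0 h. In Col-0 they summed to 12184, 12642 and 11010.4 CPM at 4 h, against 2373, 1721 and 1271 CPM at 0 h. The sums overlapped between genotypes at both times, with libraries A and B of Col-0 above all RNAi-MARS libraries at 0 h. Accordingly the median genotype difference, RNAi-MARS over Col-0, was 0.04 at 4 h and -0.48 at 0 h. LEA7 had the largest value (3.43 ± 1.24, unadjusted p = 0.0198, edgeR adjusted p = 0.946) and stood at 126, 140.4 and 234 CPM in RNAi-MARS at 4 h, against 1.61, 0.259 and 0.613 CPM at 0 h. In Col-0 LEA7 stood at 176, 155 and 171 CPM at 4 h, against 16.6, 11.1 and 0.438 CPM at 0 h, where library C was as low as RNAi-MARS.

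The dehydrin XERO1 had a difference of 1.71 ± 0.67, the cold-regulated KIN2 of 0.62 ± 0.25, the linker histone HIS1-3 of 0.95 ± 0.42 and the kinase MAPKKK18 of 1.03 ± 0.47, each with an unadjusted p under 0.05 in edgeR. EM6, a LEA protein of seeds, had the lowest value (-0.92 ± 0.65). RD29B (2.9 ± 1.32) and RAB18 (1.52 ± 0.81), named for their wide use as markers after their values were seen, did not reach an unadjusted p of 0.05. RAB18 stood at 149.8, 162 and 187 CPM in RNAi-MARS at 4 h, against 29.6, 9.54 and 10.2 CPM at 0 h, and at 274, 174 and 145 CPM in Col-0 at 4 h, against 98.5, 52.6 and 18.7 CPM at 0 h. The 0 h levels of Col-0 were highest in library A and lowest in library C for LEA7, XERO1, KIN2, RAB18 and RD29B alike. Leaving out that library A gave a median of 0.37 for the list, and leaving out library A of RNAi-MARS at 0 h gave 0.96. Of 36 promoters of these genes 22 held an ABRE core (61.1%, against 23.9% of all) and 13 a G-box (36.1%, against 7.3%).

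**Figure D4:**
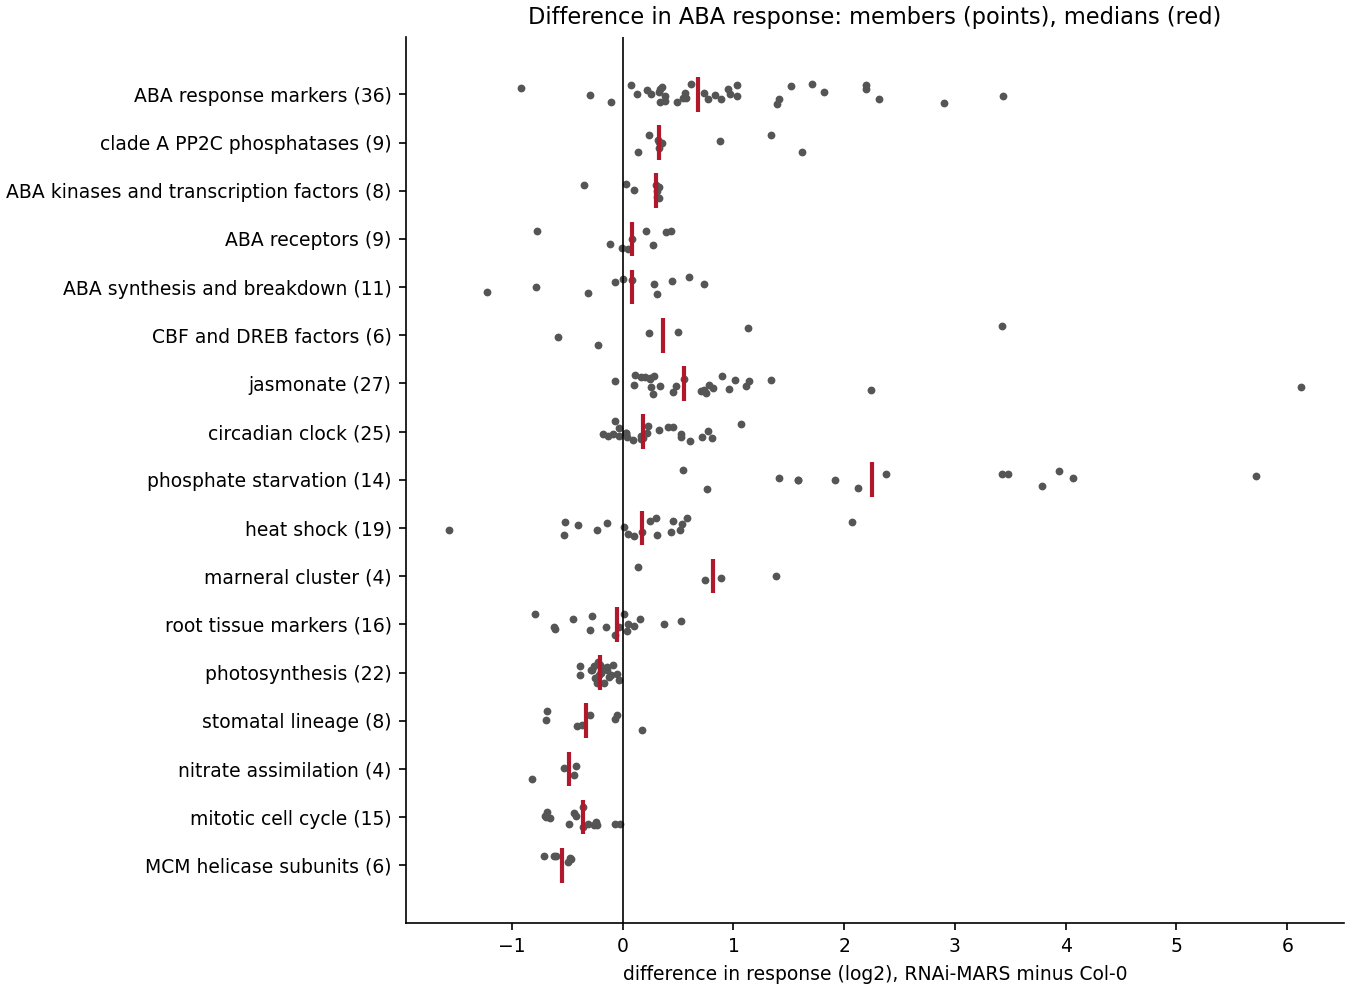
Difference in response (horizontal axis, log2) of each tested member (grey points) of 17 gene lists (1 line each, with the number tested) and the median of each list (red bars). Medians range from 2.25 for the phosphate starvation list to -0.55 for the MCM helicase subunits, and 0 members were called by edgeR.

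Of 27 jasmonate genes, 25 rose after the spray in RNAi-MARS (against 21.6% of all features) and 18 in Col-0 (against 20.7%) at an edgeR adjusted p under 0.05, and none fell. Of the 27, 26 had a positive difference, with a median of 0.55, 0 were called and 3 had an unadjusted p under 0.05 (11.1%, against 2.68%). JAZ9, one of the repressors that jasmonate removes, stood at 135, 137 and 117 CPM in RNAi-MARS at 4 h, against 78.4, 47.9 and 61.9 CPM at 0 h. In Col-0 JAZ9 stood at 88.8, 90.3 and 129.6 CPM at 4 h, against 97.7, 71.3 and 83.1 CPM at 0 h. JAZ9 rose by 1.05 ± 0.2 in RNAi-MARS (edgeR adjusted p = 0.0014), against 0.29 ± 0.19 in Col-0 (adjusted p = 0.257), a difference of 0.75 ± 0.28. AOC1, an enzyme of jasmonate synthesis whose reads were divided with related copies in 8 libraries, had 0.82 ± 0.34, AOC2 had 0.78 ± 0.42 and JAZ5 1.34 ± 0.71. JAZ8 was the third with an unadjusted p under 0.05 (2.24 ± 0.88), at under 1 CPM in every library. The mean centred log2 level of the list was 1.11, 1.39 and 0.85 in RNAi-MARS at 4 h, against -0.55, -1.34 and -1.11 at 0 h, and 0.36, 0.49 and 1.13 in Col-0 at 4 h, against -0.56, -0.78 and -1.0 at 0 h. Library C of Col-0 at 4 h stood above the other 2 of its group, and it also had the highest heat shock level (1.48) and the highest touch and early wounding level (0.77). Their part in the result was not tested. The median was 0.23 without library B of RNAi-MARS at 4 h, 0.92 without library C of Col-0 at 4 h and 0.94 without library A of RNAi-MARS at 0 h.

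Of the 6 CBF and DREB factors, which switch on cold and drought genes, DREB2A had a difference of 1.13 ± 0.38 (unadjusted p = 0.0128, edgeR adjusted p = 0.946). It stood at 14.6, 18.8 and 20.5 CPM in RNAi-MARS at 4 h, against 0.979, 0.985 and 1.59 CPM at 0 h, and at 13.9, 11.2 and 21.6 CPM in Col-0 at 4 h, against 2.24, 2.77 and 1.94 CPM at 0 h, so that the genotypes overlapped at 4 h and not at 0 h. CBF1 had 3.43 ± 1.55 (unadjusted p = 0.0477, edgeR adjusted p = 0.946) at under 1 CPM in every library, CBF3 had 0.5 ± 1.02 and CBF2 -0.22 ± 0.42. The median of the 6 was 0.37, and it was -0.17 without library B of Col-0 at 0 h and 0.98 without library C of Col-0 at 4 h.

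Of 25 clock genes, 11 rose and 10 fell after the spray in RNAi-MARS, where 42.6% of all features were called, and 10 rose and 10 fell in Col-0, where 40% were called (edgeR adjusted p under 0.05). The spray and the hour of harvest cannot be told apart in these values. Of the 25, 19 had a positive difference, with a median of 0.18, and 3 had an unadjusted p under 0.05 (12%, against 2.68%): RVE1, LHY and PRR3. LHY, a morning repressor of the clock, stood at 16.3, 23.5 and 17.97 CPM in RNAi-MARS at 4 h, against 367, 404 and 430.4 CPM at 0 h, and at 10.96, 10.3 and 13.6 CPM in Col-0 at 4 h, against 433, 373 and 432 CPM at 0 h. The genotypes overlapped at 0 h, and at 4 h every RNAi-MARS library was higher. LHY fell in both genotypes (-4.37 ± 0.17 in RNAi-MARS and -5.15 ± 0.17 in Col-0), a difference of 0.77 ± 0.21 (unadjusted p = 0.00341, edgeR adjusted p = 0.946). PRR3, a pseudo-response regulator, had 0.81 ± 0.35 and LNK4, of a family of clock coactivators, 0.33 ± 0.16. CCA1, named as the partner of LHY after the values were seen, had 0.23 ± 0.22, and LUX, of the evening complex, the lowest value (-0.17 ± 0.28). The median of the list was 0.03 without library A of RNAi-MARS at 0 h and 0.29 without library A of Col-0 at 4 h.

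The phosphate starvation list had the largest median of all lists (2.25). All 14 members had a positive difference, 6 with an unadjusted p under 0.05 (42.9%, against 2.68%) and 0 called. IPS1, a non-coding RNA that blocks the phosphate-regulating microRNA miR399, had the largest value (5.72 ± 1.96, 95% interval 1.35 to 10.097). It stood at 13.03, 50.7 and 0.5797 CPM in RNAi-MARS at 4 h, against 14.7, 5.44 and 1.73 CPM at 0 h, and at 0.138, 4.52 and 1.33 CPM in Col-0 at 4 h, against 36.99, 54.3 and 6.97 CPM at 0 h. AT4, a related RNA, had 3.78 ± 1.28, the phosphatase PECP1 4.07 ± 1.54 and the ribonuclease RNS1 2.38 ± 1.02. For IPS1 the lowest and the highest libraries of each group lay several-fold apart. The mean centred log2 level of the list was 0.59, 1.79 and -1.01 in RNAi-MARS at 4 h, against 0.2, -0.75 and -1.22 at 0 h, and -1.54, 0.22 and -0.19 in Col-0 at 4 h, against 0.98, 1.38 and -0.46 at 0 h. Every group overlapped every other: library B of RNAi-MARS at 4 h was the highest of all 12 and library C of the same group among the 3 lowest. RNS1 differed from the rest in that it rose in both genotypes, to 102, 99.3 and 103 CPM in RNAi-MARS at 4 h, against 1.14, 0.363 and 0.641 CPM at 0 h. In Col-0 RNS1 rose to 16.04, 46.96 and 81.8 CPM at 4 h, against 2.09, 2.98 and 0.469 CPM at 0 h, and at 4 h the RNAi-MARS libraries were all above those of Col-0. PAP17, an acid phosphatase, was the other member called in RNAi-MARS (1.5 ± 0.51, edgeR adjusted p = 0.0361, against -0.079 ± 0.5 in Col-0). The list median ranged from 1.71 without library B of RNAi-MARS at 4 h to 2.71 without library A of RNAi-MARS at 0 h.

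SPX3, an inhibitor of the phosphate starvation regulator PHR1, is shown with the PHR1-binding letters GNATATNC (P1BS), chosen after the values were seen, in capitals. The window is chr2:18606160-18606409 on the plus strand of TAIR10.1.
SPX3: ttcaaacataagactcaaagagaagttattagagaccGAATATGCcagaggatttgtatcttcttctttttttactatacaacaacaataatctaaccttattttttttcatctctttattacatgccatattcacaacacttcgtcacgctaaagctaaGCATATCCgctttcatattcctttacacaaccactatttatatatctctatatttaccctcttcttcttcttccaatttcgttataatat
The 2 matches began 213 and 90 bases before the start. Of the 14 promoters 4 held these letters (28.6%), against 5.52% of all promoters. SPX3 stood at 5.02, 23.9 and 0.676 CPM in RNAi-MARS at 4 h, against 6.19, 0.726 and 0.7798 CPM at 0 h. Its Col-0 levels were 0.415, 3.896 and 3.23 CPM at 4 h, against 9.67, 15.9 and 3.47 CPM at 0 h, and the difference was 3.94 ± 1.74.

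**Figure D5:**
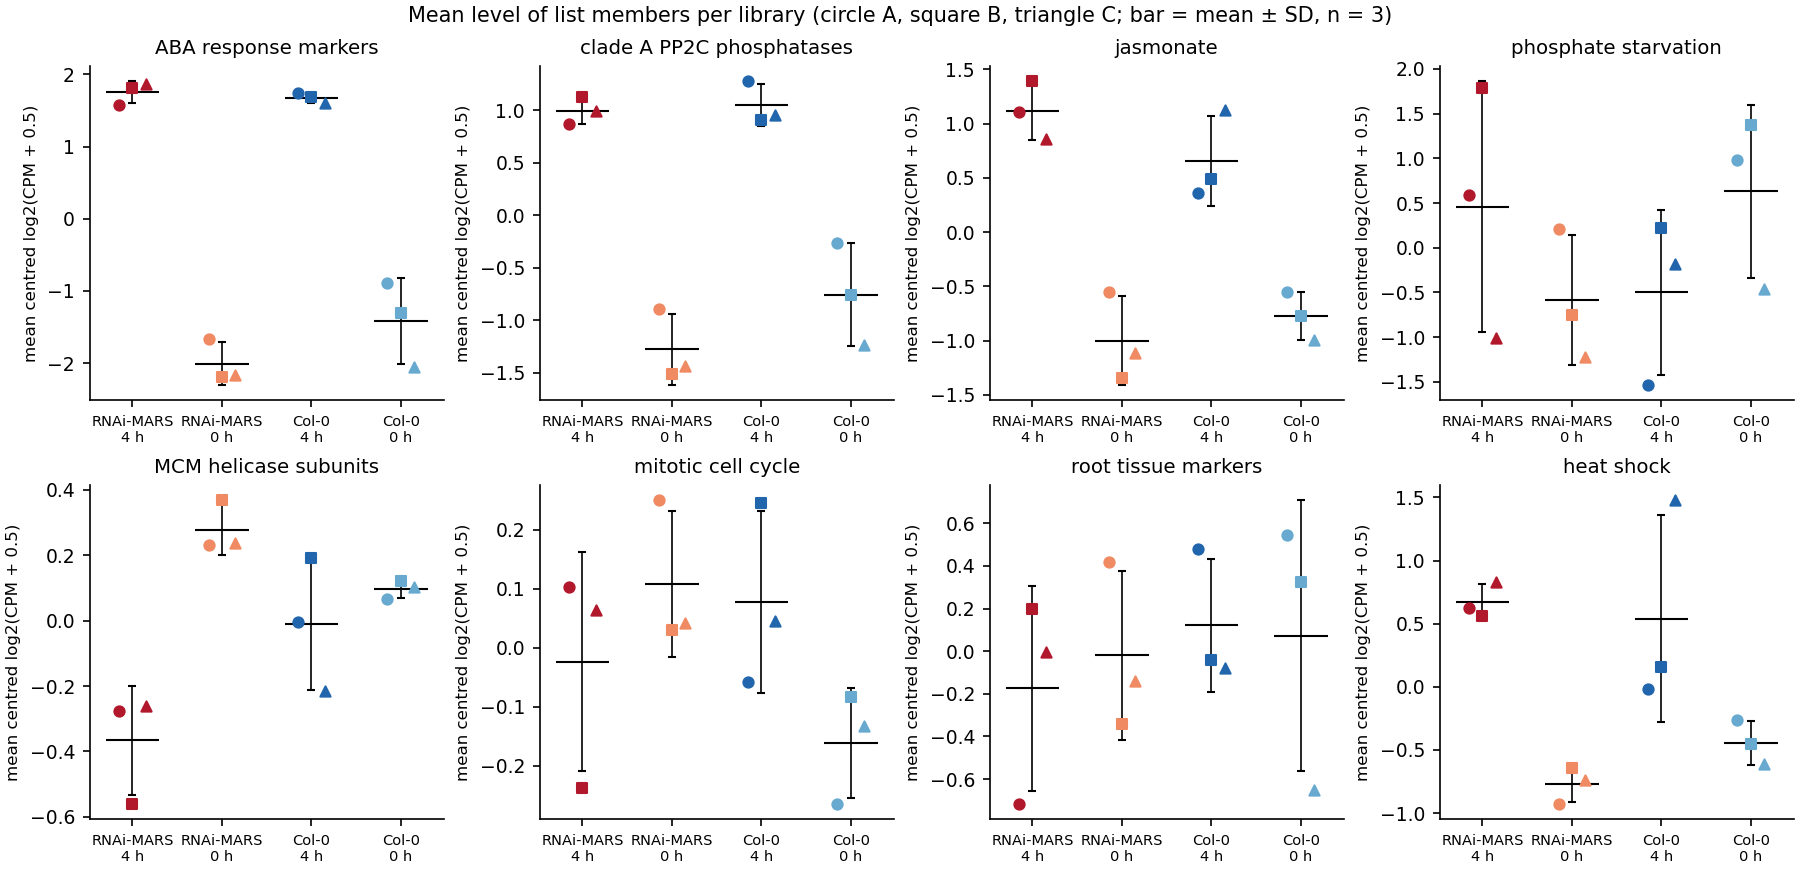
Mean centred log2(CPM + 0.5) of the tested members of 8 lists (vertical axes, one scale per panel) in each library, with libraries A, B and C as circle, square and triangle and the mean ± SD of 3 libraries. ABA response markers separate 4 h from 0 h in both genotypes, MCM subunits are lowest in RNAi-MARS at 4 h (-0.56 to -0.26), and the phosphate starvation list overlaps between all groups.

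The remaining lists had medians between -0.26 and 0.18 and 0 calls, apart from the flower and seed markers with 1 tested gene. Heat shock genes were at 0.18 (13 of 19 positive, none with an unadjusted p under 0.05), and without library C of Col-0 at 4 h, which had the highest heat shock level, at 0.76. Salicylate and defence genes were at -0.12 (7 of 17 positive) and touch and early wounding genes at -0.26 (5 of 13 positive, 0.32 without the same library C). Root tissue markers were at -0.053 (7 of 16 positive). Iron deficiency genes were at -0.16 (4 of 17 positive), aliphatic glucosinolate genes at -0.076 (4 of 14) and auxin response genes at -0.11 (4 of 11). The type-A cytokinin response regulators were at 0.051, light signalling genes at 0.07, sugar starvation and starch genes at 0.087, expansins at 0.093, aquaporins at -0.015, flavonoid genes at -0.047, polycomb genes at -0.046 and the thalianol cluster at 0.025. Apart from the iron deficiency and polycomb lists, the sign of each of these medians turned when 1 or more of the libraries was left out. The iron deficiency median ranged from -0.31 without library B of RNAi-MARS at 0 h to -0.03 without library B of RNAi-MARS at 4 h, and the polycomb median from -0.14 without library C of Col-0 at 0 h to -0.03 without library A of Col-0 at 0 h.

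As a further description, the responses of single libraries were compared on the scale of log2(CPM + 0.5): a gene was counted when all 9 differences of a 4 h and a 0 h library in RNAi-MARS lay above, or below, all 9 in Col-0. This held for 253 features above (1.13%) and 226 below (1.01%). All 24 genes of smallest p named above were among them, which follows largely from how they were chosen, as were LHY, PRR3, PYL7, PYR1, CYCB1;2, NACK1 and MCM3, and of the 36 ABA response markers, 9 PP2Cs and 14 phosphate genes none was.

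A few genes at low counts had very large fitted values. AT5G17340, annotated as a putative membrane lipoprotein, was the fourth gene called by DESeq2 (11.11, adjusted p = 0.00742), while edgeR gave 10.76 ± 2.56 and did not call it (adjusted p = 0.946). It stood at 0.516, 6.86 and 0.0483 CPM in RNAi-MARS at 4 h, against 0.0392, 0 and 0 CPM at 0 h, and at 0.104, 0.104 and 0 CPM in Col-0 at 4 h, against 0.598, 1.56 and 0.407 CPM at 0 h. Library B of RNAi-MARS at 4 h was far above the others of its group, and the gene overlaps AT5G17345 on the opposite strand. CYP82C2, a cytochrome P450, was called with opposite signs in the 2 genotypes and stood at 0.344, 1.93 and 0 CPM in RNAi-MARS at 4 h, against 0.0783, 0 and 0.0835 CPM at 0 h, and at 0.0691, 0 and 0 CPM in Col-0 at 4 h, against 0.349, 1.18 and 1.63 CPM at 0 h. The fitted values of both genes rest on groups close to 0 counts in both genotypes, those of edgeR also on its prior count, and give no bound.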

How the data were processed

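Libraries were made from polyadenylated RNA of whole seedlings, per the labels' protocols. The deposited values are estimated counts per gene, of which 5.31 to 7.60% per library were not whole. Per the submitters' processing notes the authors used Trimmomatic 0.36, STAR 2.7.2a and featureCounts of Subread 1.6.5 with TAIR10. Strand and multiple-mapping settings are not given in the sources used here.

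Counts were rounded to whole numbers. Totals were 19020202 to 38787804 per library, and the 3 libraries per group limit the precision. The 3 libraries of a group differed by more than counting noise. Features passing filterByExpr (minimum count 10) were tested with edgeR 4.0.16 (R 4.3.3, TMM, robust quasi-likelihood F test, 1 fit over 12 libraries, Benjamini-Hochberg adjustment over all 22465 features, called under 0.05). Log2 values are given ± SE. The SE was derived from the F test, as the absolute log2 value divided by the square root of F. The 95% intervals were built from that SE, and CPM per library are counts divided by the TMM-scaled total. limma 3.58.1 (voom), DESeq2 1.42.0, other filters and scalings, a replicate block, nuclear genes alone, each library left out and, chosen after seeing the data, 2 libraries of low root marker level left out were tried as alternatives.

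Named genes were the 12 nuclear genes of smallest unadjusted p in each direction with a mean of at least 5 CPM, up to 5 of largest difference, those called with opposite signs, the marneral cluster and, per list, the largest, the lowest and up to 4 of smallest p at a mean of at least 1 CPM. AT5G17340, MAPKKK18, JAZ8, CBF1, SPX3, PAP17, NCED9, RD29B, RAB18, CCA1 and the MCM subunits were added after their values were seen. Members and lists were chosen with earlier results of these data known. Promoters are RefSeq sequence of TAIR10.1, matched by identifier.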

Additional observations from a re-analysis of the deposited data

Results flagged for a closer look

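The responses of RNAi-MARS and Col-0 differed by the test of the difference itself in 4 genes in DESeq2, and in none by edgeR or limma-voom. ABCG27 had a log2 difference of 2.03 in DESeq2, RVE1 of 1.0751, AT3G26510 of 0.5919 and AT5G17340 of 11.1088. AT5G17340 was at 6.86 CPM in library B of RNAi-MARS at 4 h and at most 1.56 CPM in the other 11 libraries, and its fitted size depends on groups close to 0 counts.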

How the results depend on the processing

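edgeR called 0 differences in response under each alternative run with it: size factors of DESeq2, no filter, a minimum count of 50, nuclear genes alone, each of the 12 libraries left out, and the 2 libraries of lowest root marker level left out. DESeq2 called 4 differences and limma-voom 0. Whether the replicate letters pair the libraries was not settled. Over 18 same-letter pairs the correlations of deviations ran from -0.299 to 0.403, with 8 of them over 0.1. For pairs of different letters they ran from -0.397 to 0.33, and some of these were over 0.1 too. The highest of all pairs was between libraries A of Col-0 and RNAi-MARS at 0 h, while not every library correlated best with its own letter. No source used here says that a letter marks a shared culture or day. A replicate block gave 0 calls and 1150 features at an unadjusted p under 0.05 in edgeR. Its smallest adjusted p was 0.297, against 0.946 in the main fit. The percent of features with the larger response in RNAi-MARS (56.7%) ranged from 48.9% without library B of Col-0 at 0 h to 64.5% without library A of RNAi-MARS at 0 h, was 49.0% without library A of Col-0 at 0 h, and was 64.6% without both libraries of lowest root marker level. MRN1 had a difference of -0.0518 by limma-voom and of -0.8738 to 1.3744 with 1 library left out. Values under the alternatives were counted for 35 of the named genes, mainly those chosen for the smallest p, which favours a stable direction. Of these values 690 kept their direction and side of the threshold, 6 turned direction, all of 1 gene, and 3 passed the threshold in DESeq2. Many list members named above, such as LHY, LEA7 and PYL6, were not in this count. Of the list medians under the alternatives, 558 moved by less than the spread between libraries and 42 by more. This count does not consider the sign, which turned for many lists when 1 library was left out. Examples are the CBF and DREB factors (-0.17 to 0.98), heat shock (-0.09 to 0.76) and the ABA receptors (-0.10 to 0.23). Without both libraries of lowest root marker level, the median was 0.57 for the PP2Cs, 0.91 for the ABA response markers and -0.44 for photosynthesis. The cause of these changes was not tested. With 3 libraries per group the median 95% interval of a difference spans 0.47 log2 units to either side.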
